A study of Homo sapiens with 4 samples.

Results

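The 32 genes described here encode enzymes that make, salvage, phosphorylate or degrade the nucleotides used for RNA and DNA. They were taken by name from the 61267 rows of the count table: 2 genes of phosphoribosyl pyrophosphate (PRPP) supply, 6 of de novo purine synthesis to inosine monophosphate (IMP), 3 of the branch from IMP to guanosine monophosphate (GMP), 3 of de novo synthesis of uridine monophosphate (UMP), 2 of cytidine triphosphate (CTP) synthesis, 5 of salvage, 5 nucleotide kinases, 3 ribonucleotide reductase subunits, 2 of thymidylate and deoxyuridine triphosphate (dUTP) metabolism and 1 that hydrolyses deoxynucleoside triphosphates (dNTPs). All 32 were present and passed the filter on low counts. The cells were SU-DHL-2, an established human line of diffuse large B-cell lymphoma, grown in serum-supplemented medium and listed as wild type in every library. The vehicle group held 2 libraries of cells given solvent, and the Spautin-1 group 2 libraries of cells given this small-molecule inhibitor at 10 µM for 36 h. Only this line was profiled, and nothing in the labels says that the libraries of a group came from separate cultures, so p-values measure the spread between these 4 samples alone, which may be technical.

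De novo purine synthesis builds the purine ring step by step on PRPP and ends in IMP, from which GMP and adenosine monophosphate are made. De novo pyrimidine synthesis makes the ring first and joins it to PRPP afterwards; its DHODH step takes place in the inner mitochondrial membrane and feeds electrons into ubiquinone, the reason why DHODH is also counted among the suppressors of ferroptosis, a death by lipid peroxidation. Ribonucleotide reductase turns ribonucleotides into deoxyribonucleotides, and several of the genes for dNTP supply are known targets of E2F transcription factors, which act at the entry into S phase. Proliferating lymphocytes rely heavily on these pathways, and several of the enzymes are targets of established drugs.

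Promoter sequences, from the RefSeq promoter table (build GRCh38.p14), covered 29 of the 32 genes in 44 windows of 300 bases, 250 before and 50 after an annotated start. The motifs TTGGCGC and TTCCCGC, forms of the E2F element, were searched on both strands together with CACGTG (E box), ATTGG (the core of the CCAAT box) and GGGCGG (GC box). TTGGCGC was in 4 of the 44 windows, or 9.09%, against 3.04% of all 35116 windows. TTCCCGC was in 9, or 20.5%, against 6.55%. CACGTG was in 6 (13.6%, against 7.26%), ATTGG in 14 (31.8%, against 34.6%) and GGGCGG in 31 (70.5%, against 45.0%). Some genes have several overlapping windows, a TTCCCGC overlapped a GGGCGG in PRPS1, and GGGCGG copies overlapped each other in DHODH and CTPS1. A match describes letters and shows no binding. The E2F motif nearest to a start is shown for 6 genes of dNTP supply because these genes, described below, did not move alike; the first pair fell and the other 4 did not pass the test. Capitals mark the motif or its reverse complement, and each run reads in the direction of the gene. The stretches are chr2:10122365-10122393 for RRM2, chr17:78187047-78187075 (minus strand) for TK1, chr11:4094451-4094479 for RRM1, chr18:657603-657631 for TYMS, chr15:48332160-48332188 for DUT and chr4:70993659-70993687 for DCK, on the plus strand unless stated.
RRM2: ggggcccgcgcGCGCCAAggccgccgaga
TK1: aagcggtcggcGCGGGAAccaggggctta
RRM1: caagaaaaacgTTCCCGCcggttaggttt
TYMS: gcgggacggccGCGGGAAaaggcgcgcgg
DUT: aaatttcggttTTGGCGCgctccctgcgg
DCK: gctgcctccgcGCGCCAAagtcaaacccc
Counted from the annotated start, the first base of the motif is at -192 in RRM2, -12 in TK1, -223 in RRM1, -39 in TYMS, -26 in DUT and 21 in DCK.

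Longer stretches before the start, cut where GENCODE 29 annotates a UTR, are shown for 2 de novo genes that fell, PFAS (chr17:8249039-8249285) and UMPS (chr3:124730202-124730365), and for DHODH (chr16:72008494-72008587), which did not pass the test. All are on the plus strand, with any of the 5 motifs in capitals.
PFAS: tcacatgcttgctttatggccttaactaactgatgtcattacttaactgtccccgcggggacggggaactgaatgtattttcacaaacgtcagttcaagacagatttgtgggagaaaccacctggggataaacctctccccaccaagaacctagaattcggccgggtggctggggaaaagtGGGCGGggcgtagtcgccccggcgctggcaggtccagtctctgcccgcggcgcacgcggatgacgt
UMPS: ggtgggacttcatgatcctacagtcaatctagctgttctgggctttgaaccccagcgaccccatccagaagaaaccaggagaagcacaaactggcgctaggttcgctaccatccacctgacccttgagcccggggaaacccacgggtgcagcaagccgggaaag
DHODH: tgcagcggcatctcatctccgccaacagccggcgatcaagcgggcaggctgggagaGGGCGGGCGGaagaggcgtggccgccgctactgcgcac
The PFAS stretch of 247 bases holds 1 GC box, the UMPS stretch of 164 bases holds none of the motifs, and the DHODH stretch of 94 bases holds a run of 2 overlapping GC boxes.

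The libraries held 34115420 to 38362526 counts, and the 32 genes took 0.251% and 0.251% of them in vehicle and 0.217% and 0.235% in Spautin-1. All 9 B-lineage markers checked were expressed, at a summed 728 to 830 CPM (reads of a gene scaled to library size) in vehicle and 1193 to 1198 CPM in Spautin-1, and 5 of them were called higher. The 5 T-cell markers summed to at most 1.09 CPM, the 4 myeloid markers to at most 1.32 CPM and the 2 natural killer markers to at most 0.616 CPM in any library; none of these markers was at 0 in all 4 libraries. Of 4 epithelial and stromal markers, EPCAM was at 46.4 to 54.3 CPM in each library and the others summed to under 1 CPM. The part of the B-lineage change in the results below was not tested.

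Spautin-1 was followed by lower mRNA of a few enzymes of the pathway, at most 1 to a step class, with 1 to 6 genes in a class. By the quasi-likelihood test of edgeR, at a Benjamini-Hochberg adjusted p below 0.05, 7 of the 32 genes were lower: PFAS, IMPDH1, UMPS, TK1, DTYMK, RRM2 and SAMHD1. Among all 18368 genes tested, 10.5% were called lower. Of the 7, RRM2, TK1, DTYMK and SAMHD1 are among 9 genes of dNTP supply and removal. That grouping was made with the values in view. A single gene, RRM2B, was higher, against 11.5% of all genes. In either direction 8 of the 32 genes were called, against 22.0% of all genes tested. The median log2 fold change of the 32 was -0.13, against -0.01 over all genes tested. Both Spautin-1 libraries lay below both vehicle libraries for 15 of the 32 genes and above them for 5; over all genes tested such separation was seen downward for 30.6% and upward for 30.8%. The 24 genes not called ranged from -0.48 (DUT) to 0.28 (IMPDH2) on the log2 scale.

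**Figure D1:**
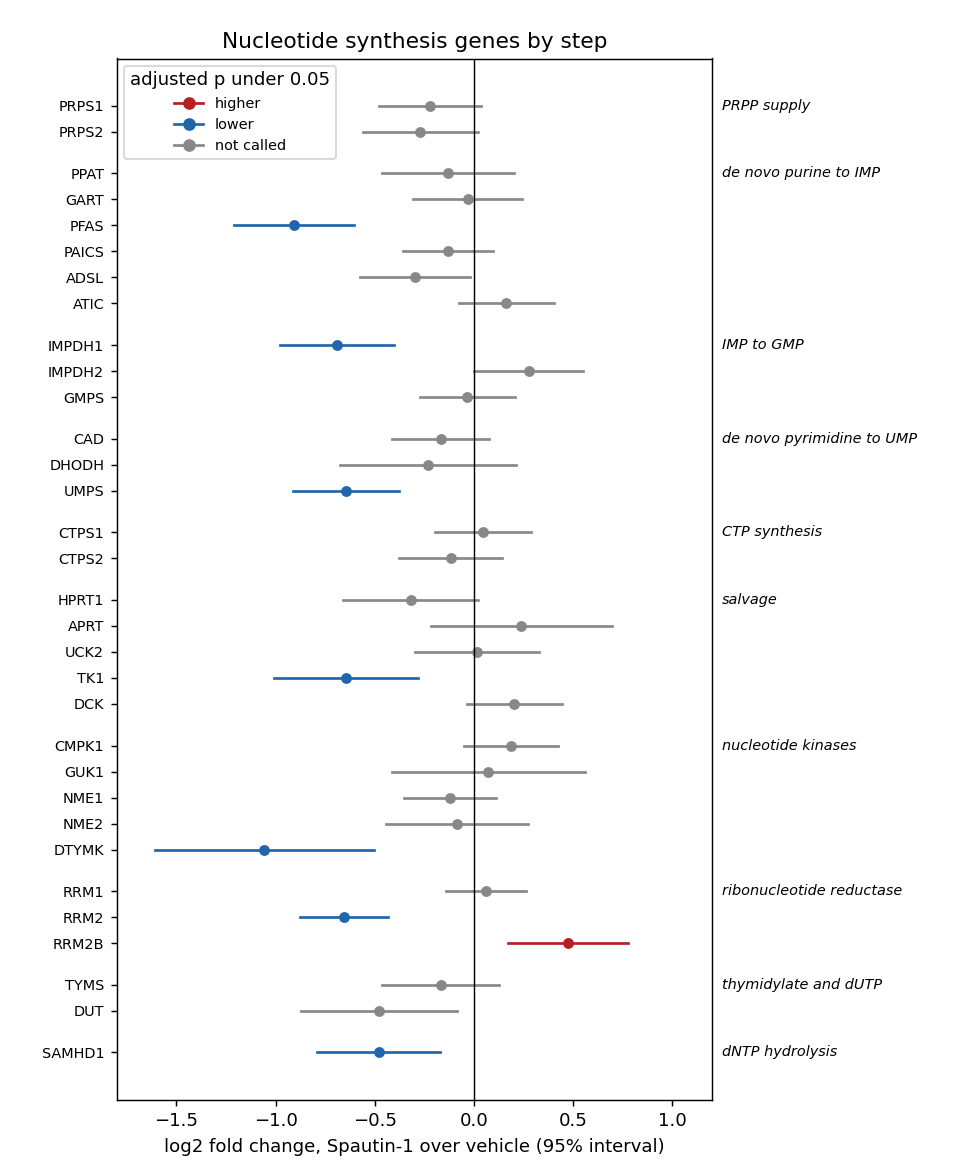
Log2 fold change of Spautin-1 over vehicle for each of the 32 genes (points), with its 95% interval (lines), ordered by pathway step; n = 2 libraries per group. The 7 genes called lower (blue) each lie in a different step class, with 1 to 6 genes in a class. Of the 7, RRM2, TK1, DTYMK and SAMHD1 are among 9 genes of dNTP supply and removal. RRM2B (red) is the gene called higher.

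The small subunits of ribonucleotide reductase moved in opposite directions while the large subunit stayed near its vehicle level. RRM2 (chromosome 2, 10120698 to 10211725, GRCh38), the small subunit used in S phase, was at 175 and 170 CPM in the vehicle libraries and 108 and 111 CPM in the Spautin-1 libraries. The groups were well apart, with 4041 and 3855 reads in Spautin-1 against 6084 and 6565 in vehicle, and RRM2 fell 1.58-fold (log2 fold change -0.66 ± 0.10, SE; edgeR adjusted p = 0.000924). RRM2B on chromosome 8, the p53-inducible small subunit that serves DNA repair and resting cells, was at 19.9 and 19.6 CPM in vehicle and 26.1 and 28.8 CPM in Spautin-1. It rose 1.39-fold (0.47 ± 0.14; edgeR adjusted p = 0.0286). RRM1, the catalytic large subunit, was at 366 and 361 CPM in vehicle and 366 and 392 CPM in Spautin-1, groups that overlap, and its 95% interval ran from -0.14 to 0.26 (edgeR adjusted p = 0.693), which does not reach the change of RRM2. RRM2B was no longer called when either Spautin-1 library was dropped (0.53 with an edgeR adjusted p of 0.13 when it was replicate 1, and 0.41 with 0.3 when it was replicate 2); such fits take their spread from the vehicle libraries alone.

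Genes of thymidine nucleotide supply fell or varied between libraries. TK1 (chromosome 17, 78174091 to 78187233), the S-phase thymidine kinase of salvage, was at 18.4 and 19.4 CPM in vehicle and 10.6 and 13.6 CPM in Spautin-1. It fell 1.56-fold (-0.64 ± 0.17; edgeR adjusted p = 0.0167), a call that was lost without Spautin-1 replicate 1 (-0.49, adjusted p = 0.227). DTYMK (chromosome 2, 241675747 to 241686944), which phosphorylates thymidine monophosphate, stood at 9.27 and 17.2 CPM in vehicle and 6.26 and 6.49 CPM in Spautin-1. The Spautin-1 libraries were close together and below both vehicle libraries, which differed widely. DTYMK fell 2.08-fold (-1.06 ± 0.25; edgeR adjusted p = 0.0112), but without vehicle replicate 2 the value was -0.54 and missed the threshold (adjusted p = 0.0506). DUT (chromosome 15, 48331011 to 48343373), which removes dUTP and so supplies the substrate of thymidylate synthase, had the same kind of spread, at 77.4 and 124 CPM in vehicle and 67.0 and 78.0 CPM in Spautin-1. The groups overlapped and DUT was not called (-0.48 ± 0.18, edgeR adjusted p = 0.079). It was at -0.78 without vehicle replicate 1 and at -0.09 without vehicle replicate 2. Fits without a vehicle library, here for DTYMK and DUT, take their spread from the Spautin-1 libraries alone. TYMS, thymidylate synthase itself, was at 64.7 and 72.6 CPM in vehicle and 53.9 and 68.4 CPM in Spautin-1, with overlapping groups (-0.17, 95% interval -0.46 to 0.13). TYMS shares 39.9% of its exonic length with ENOSF1 on the opposite strand, so its reads are uncertain; DUT shares 14.5% with DUT-AS1 on the opposite strand.

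Of the other genes that act on deoxynucleotides, one that degrades them fell and a salvage kinase did not pass. SAMHD1 (chromosome 20, 36890229 to 36951893), the dNTP hydrolase known as a restriction factor in resting and myeloid cells, was at 29.9 and 28.4 CPM in vehicle and 22.6 and 19.3 CPM in Spautin-1. It fell 1.40-fold (-0.48 ± 0.14; edgeR adjusted p = 0.0302). With Spautin-1 replicate 1 left out SAMHD1 was at -0.61 (adjusted p = 0.0818), and with replicate 2 left out at -0.36 (adjusted p = 0.374), so either loss ended the call. SAMHD1 also shares 9.86% of its exonic length with TLDC2 on the opposite strand. DCK, deoxycytidine kinase, activates cytarabine and related drugs. It was at 151 and 134 CPM in vehicle and 156 and 173 CPM in Spautin-1 (0.20, 95% interval -0.04 to 0.44). DCK shares 6.41% of its exonic length with MOB1B on the same strand, so its reads are uncertain. A grouping of the 9 genes of dNTP supply and removal was made across classes with the values in view. In it 4 genes were called lower and 1 higher, against 10.5% lower and 11.5% higher over all genes tested. Its median of -0.48 is the value of DUT, which was not called and varied between the vehicle libraries. Medians were not compared by a test. The median was -0.13 over the 6 genes of purine synthesis to IMP, -0.03 over the 3 of the GMP branch, -0.23 over the 3 of pyrimidine synthesis and 0.02 over the 5 of salvage, which include TK1 and DCK.

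**Figure D2:**
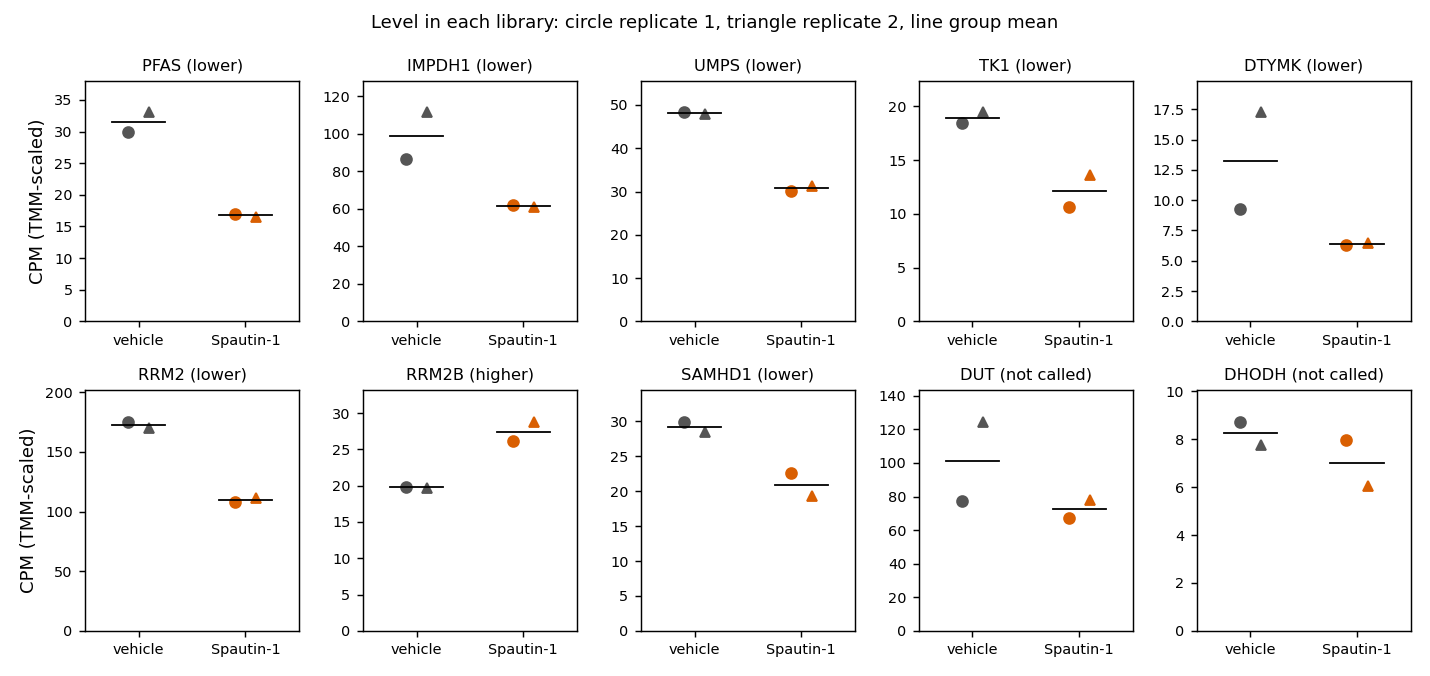
Level in CPM (vertical axes, each from 0) in the vehicle and Spautin-1 libraries for the 8 genes called and for DUT and DHODH, which were not; circles are replicate 1, triangles replicate 2 and lines group means. In DTYMK and DUT the vehicle libraries lie far apart (9.27 and 17.2 CPM, and 77.4 and 124 CPM), and in DHODH the Spautin-1 libraries do (7.97 and 6.06 CPM).

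In de novo purine synthesis a single step of the 6 passed the test. PFAS (chromosome 17, 8247618 to 8270491), which carries out the fourth step as formylglycinamidine ribonucleotide synthase, was at 29.9 and 33.0 CPM in vehicle and 17.0 and 16.6 CPM in Spautin-1. Both Spautin-1 libraries lay far below both vehicle libraries. PFAS fell 1.88-fold (-0.91 ± 0.14; edgeR adjusted p = 0.000833). The gene of the committed step, PPAT, gave -0.13 (95% interval -0.46 to 0.20). GART, which encodes a trifunctional enzyme, gave -0.03, and its vehicle libraries differed, at 220 and 168 CPM, with 185 and 195 CPM in Spautin-1. PAICS, whose start lies back to back with that of PPAT on chromosome 4, gave -0.13, and ADSL, which acts in purine synthesis and again in making adenosine monophosphate, gave -0.30 (95% interval -0.58 to -0.02; edgeR adjusted p = 0.115). ATIC, which closes the ring to IMP, gave 0.16. In ADSL, 1344 exonic bases also belong to a second annotated gene of that strand, so its reads are uncertain. Of the PRPP synthetases that feed this and other branches, PRPS1 was at -0.22 and PRPS2 at -0.27, each with both Spautin-1 libraries below both vehicle libraries and neither called (edgeR adjusted p = 0.206 and 0.17).

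On the guanine branch the isozymes of IMP dehydrogenase, the rate-limiting enzyme of GTP synthesis and the target of mycophenolic acid, differed. IMPDH1 (chromosome 7, 128392277 to 128409986) was at 86.6 and 112 CPM in vehicle and 61.9 and 61.0 CPM in Spautin-1. The Spautin-1 libraries nearly coincided, below both vehicle libraries. IMPDH1 fell 1.61-fold (-0.69 ± 0.13, edgeR adjusted p = 0.00329). It was at -0.86 without vehicle replicate 1 and at -0.49 without vehicle replicate 2. IMPDH2 was at 33.6 and 35.3 CPM in vehicle and 39.5 and 43.9 CPM in Spautin-1. Its groups were separate in the upward direction, and it missed the threshold (0.28 ± 0.13; edgeR adjusted p = 0.142). Of the exonic length of IMPDH2, 32.8% also belongs to a second annotated gene of that strand, so its reads are uncertain. GMPS, which turns xanthosine monophosphate into GMP, gave -0.03 (95% interval -0.27 to 0.21).

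In de novo pyrimidine synthesis the last enzyme fell and the earlier ones did not pass the test. UMPS (chromosome 3, 124730433 to 124749273), which makes UMP from orotate, was at 48.3 and 48.0 CPM in vehicle and 30.2 and 31.4 CPM in Spautin-1. Replicates agreed closely in both groups, and UMPS fell 1.56-fold (-0.64 ± 0.12; edgeR adjusted p = 0.00308). CAD, the trifunctional protein that starts the pathway, was at 101 and 91.2 CPM in vehicle and 86.8 and 84.4 CPM in Spautin-1 (-0.17, 95% interval -0.41 to 0.08). DHODH (chromosome 16, 72008588 to 72027664), the mitochondrial step, had the lowest level per length of all 32 genes. It gave 303 and 300 reads in vehicle and 299 and 210 in Spautin-1, or 8.72, 7.76, 7.97 and 6.06 CPM. The groups overlapped: Spautin-1 replicate 1 lay between the vehicle libraries and replicate 2 below both. The log2 fold change of DHODH was -0.23 ± 0.20 (95% interval -0.67 to 0.21; edgeR adjusted p = 0.464), and it ran from -0.45 without Spautin-1 replicate 1 to -0.04 without Spautin-1 replicate 2. A fall as large as that of UMPS was therefore not excluded for DHODH at this depth. The CTP synthases downstream, CTPS1 and CTPS2, gave 0.05 (95% interval -0.20 to 0.29) and -0.12 (95% interval -0.38 to 0.14).

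Among 5 salvage genes TK1 alone was called. HPRT1, which salvages hypoxanthine and guanine, was at 17.8 and 16.8 CPM in vehicle and 14.8 and 12.9 CPM in Spautin-1, separate groups that did not pass the test (-0.32, 95% interval -0.66 to 0.02). APRT, its counterpart for adenine, gave 0.24 with overlapping groups (95% interval -0.22 to 0.70), and UCK2, the uridine and cytidine kinase, gave 0.02 (95% interval -0.30 to 0.33). Of the nucleotide kinases besides DTYMK, CMPK1, which phosphorylates UMP and CMP, was at 74.3 and 75.3 CPM in vehicle and 84.6 and 86.0 CPM in Spautin-1 (0.19; edgeR adjusted p = 0.245). GUK1, guanylate kinase, was at 33.5 and 63.8 CPM in vehicle and 47.2 and 55.2 CPM in Spautin-1. The vehicle libraries of GUK1 thus enclosed the Spautin-1 libraries, and its direction depended on which was left out. GUK1 was at -0.32 without vehicle replicate 1 and at 0.61 without vehicle replicate 2. NME2, a nucleoside diphosphate kinase, was at 70.7 and 108 CPM in vehicle and 81.2 and 87.4 CPM in Spautin-1. It behaved alike, at -0.36 without vehicle replicate 1 and at 0.25 without vehicle replicate 2. NME1 was at 148 and 147 CPM in vehicle and 128 and 144 CPM in Spautin-1 (-0.12). The readthrough gene NME1-NME2 carried 97.8% to 98.2% of the summed reads of NME1 and NME2 in each library, a share that reads counted once for each overlapping gene would give, and the 3 genes are not independent.

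Ratios between paralogues, from RPKM values (CPM divided by the exonic length in kilobases), compare the isozymes within each library. IMPDH1 exceeded IMPDH2 by a log2 ratio of 1.96 and 2.25 in vehicle and 1.24 and 1.07 in Spautin-1. The ratio fell from 4.31 to 2.23 (geometric means), a change larger than the gap within either group. The length used for IMPDH2, 5123 bases, equals its whole annotated span (49024325 to 49029447), which can lower its RPKM. Which isozyme had the more abundant mRNA was therefore not settled. RRM2 exceeded RRM2B by 2.38 and 2.35 in vehicle and 1.28 and 1.19 in Spautin-1, a ratio that went from 5.14 to 2.35. CTPS1 over CTPS2 moved less, from -0.31 and -0.31 to -0.18 and -0.13, but its groups were also separate. PRPS1 over PRPS2 overlapped between groups (0.13 and 0.35 against 0.30 and 0.27), as did NME1 over NME2 (0.62 and -0.01 against 0.20 and 0.27). With 2 libraries against 2, an exact permutation test of a ratio cannot go below p = 0.333, and none was used. Lengths are the exonic lengths of all annotated exons, so a ratio does not order a pair with certainty.

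**Figure D3:**
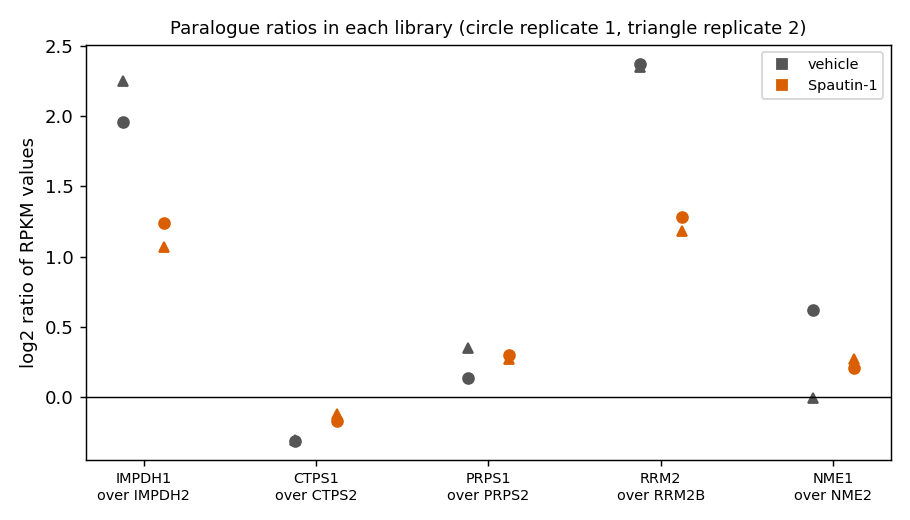
Log2 ratio of RPKM values (vertical axis) of 5 paralogue pairs in each library; circles are replicate 1 and triangles replicate 2, grey for vehicle and orange for Spautin-1. RRM2 over RRM2B and IMPDH1 over IMPDH2 were lower in both Spautin-1 libraries, and the other 3 pairs moved by less than 0.2 between group means. Of those 3, CTPS1 over CTPS2 was higher in both Spautin-1 libraries, and the others overlapped between groups.

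Levels per length placed RRM1 first, at 85.8 ± 0.834 RPKM in vehicle (mean ± SD, n = 2), followed by DCK at 46.0 ± 3.89 RPKM and NME1 at 43.2 ± 0.287 RPKM; DCK and NME1 differed by less than the SD of DCK. Of the genes called, IMPDH1 had the highest RPKM in vehicle at 29.2 ± 5.18, followed by RRM2 at 18.9 ± 0.406 RPKM and TK1 at 10.3 ± 0.387 RPKM. In CPM, RRM2 stood above IMPDH1 in vehicle, at a mean of 173 against 99.1. Lengths cover all annotated exons, 9153 bases for RRM2 and 3396 for IMPDH1, so the orders given here depend on the annotation. The lowest were SAMHD1 at 2.69 ± 0.0979 RPKM and DHODH at 1.19 ± 0.098 RPKM, and ADSL, just above them at 2.95 ± 0.154 RPKM, differed from SAMHD1 by about as much as their summed SDs.

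Other genes of the same pathways were listed by textbook role. Of 33 such genes tested, out of 41 listed, 8 were higher (AMPD2, ADK, ADA, AK3, TK2, DPYD, NT5C3A and SLC29A2) and 1 was lower, with a median of 0.16; the other 24 were not called, and the shares over all genes were 11.5% higher and 10.5% lower. The difference between this list and the 32 genes was not tested. ADA, adenosine deaminase, which turns adenosine and deoxyadenosine into inosine nucleosides, was at 13.7 and 14.6 CPM in vehicle and 48.4 and 51.1 CPM in Spautin-1. ADA rose 3.51-fold (edgeR adjusted p = 4.67e-06), further than any of the 32 genes moved. NT5C3A, a pyrimidine 5'-nucleotidase, rose 1.67-fold, from 17.9 and 24.0 CPM to 34.3 and 35.7 CPM (edgeR adjusted p = 0.00585). Among the genes higher was TK2, the mitochondrial thymidine kinase, at 3.02 and 1.92 CPM in vehicle and 4.85 and 4.79 CPM in Spautin-1, while TK1 fell; TK2 was picked out after its values were seen. Dropping Spautin-1 replicate 1 left 4 of the list higher, dropping Spautin-1 replicate 2 left 2, and dropping vehicle replicate 1 gave 10 higher and 7 lower.

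Folate enzymes and one-carbon donors, which supply carbon for purines and thymidylate, gave 1 gene higher and 3 lower of 13 tested, with a median of -0.36. Over all genes tested, 11.5% were called higher and 10.5% lower. MTHFD2, the mitochondrial methylenetetrahydrofolate dehydrogenase, rose 1.51-fold, from 92.0 and 76.1 CPM to 126 and 127 CPM (edgeR adjusted p = 0.00439). SLC25A32, the mitochondrial folate carrier, fell 1.58-fold, from 48.4 and 46.2 CPM to 29.8 and 30.2 CPM (edgeR adjusted p = 0.00284), and the serine synthesis enzyme PSPH fell 1.52-fold. Between 1 and 8 of the 13 were called lower as each library was left out, the fewest without Spautin-1 replicate 2 and the most without vehicle replicate 1.

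Most genes on a list of S phase and proliferation were called lower, against 10.5% of all genes tested. Of 24 tested, 18 were lower and the other 6 were not called, with a median of -0.45; without Spautin-1 replicate 1 and replicate 2, 10 and 5 were lower. In RNA from whole cultures, fewer cells in S phase and less mRNA per cell cannot be told apart, and the part of this change in the lower RRM2, TK1 and DTYMK was not tested. Of 9 ferroptosis suppressor genes set beside DHODH, 2 were higher (GCH1 and COQ2) and 1 was lower (TXNRD1), with a median of -0.15. The shares over all genes tested were 11.5% higher and 10.5% lower.

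**Figure D4:**
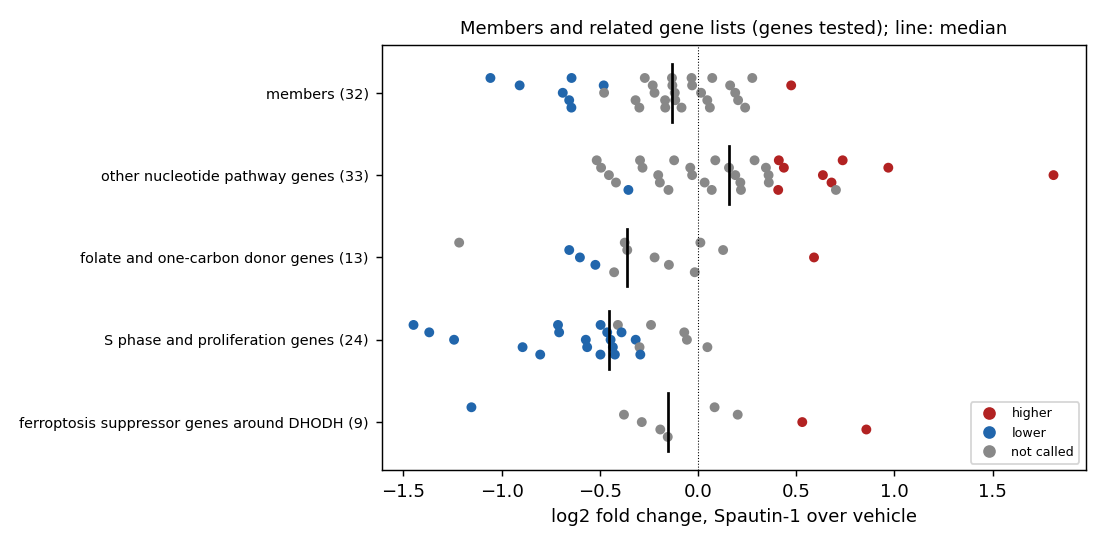
Log2 fold change of Spautin-1 over vehicle (horizontal axis) for the 32 genes and for 4 related lists, 1 point per gene tested, with the median as a vertical line; blue is called lower, red higher and grey not called. The median was -0.13 for the 32 genes, 0.16 for other genes of nucleotide metabolism and -0.45 for S phase genes.

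The spread between the vehicle libraries limited several values. Vehicle replicate 2 exceeded replicate 1 by a log2 ratio of 0.93 in GUK1, 0.89 in DTYMK, 0.69 in DUT, 0.61 in NME2, 0.41 in APRT and 0.36 in IMPDH1, and was lower by 0.39 in GART (log2 ratio -0.39). The GC content of the transcripts of these 7 genes, from GENCODE 29, was 63.1%, 55.5%, 46.2%, 55.6%, 64.0%, 61.7% and 45.5%, in the same order. Over the 32 genes the ratio of the vehicle libraries correlated with GC content (Pearson r = 0.58, Spearman rho = 0.58), and that of the Spautin-1 libraries did less (0.23 and 0.13); these points share libraries and scaling, and the correlations are descriptions. Over 16407 genes tested with GC content the Pearson r for the vehicle libraries was 0.24. With an offset for GC content in each library all 8 genes called here kept their call and direction, and ADSL (-0.35, edgeR adjusted p = 0.034) and DUT (-0.56, adjusted p = 0.0313) were called lower in addition.

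**Figure D5:**
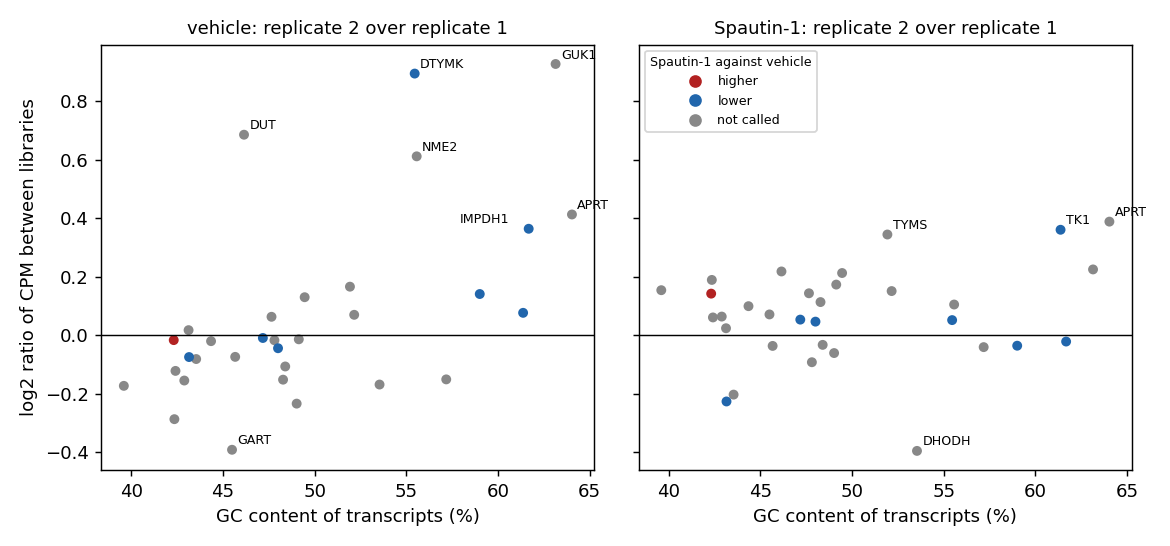
Log2 ratio of CPM between replicate 2 and replicate 1 (vertical axis) against GC content of the transcripts (horizontal axis, %) for the 32 genes, in vehicle (left) and Spautin-1 (right); colours give the call of Spautin-1 against vehicle, and genes with a ratio beyond 0.33 in either direction are named. The vehicle ratios reach 0.93 (GUK1), and the Spautin-1 ratios stay between -0.39 and 0.39.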

How the data were processed

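RNA was sequenced from 4 SU-DHL-2 libraries made with a stranded mRNA kit, per the labels' protocols. Trimmomatic 0.36 and featureCounts of Subread 1.5.1 on GRCh38 are named, as is edgeR 3.12.1, per the submitters' processing notes. The values the authors deposited are raw read counts per gene, beside coordinates and exonic lengths per the file headers. No aligner, annotation release, strand setting or treatment of shared reads is given in the sources used here.

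From these counts, filterByExpr (minimum count 10, minimum total 15) kept 18368 genes, which were TMM-scaled and fitted in edgeR 4.0.16 (R 4.3.3) with the quasi-likelihood F test, two-sided and without a term for the replicate number; 2 residual degrees of freedom remained. p-values were adjusted over all genes tested. CPM and RPKM are TMM-scaled, except lineage markers, scaled by library size. Standard errors and 95% intervals derive from the F statistic. The fit was tested on simulated data. Alternatives were other scalings and filters, DESeq2 1.42.0, limma-voom (limma 3.58.1), edgeR's robust option, a fit with the replicate number as a block, loess offsets (span 0.3) for gene length and GC content (GENCODE 29, available for 89.8% of genes tested), a threshold of 0.01 and leaving out each library. The 32 genes and all lists were chosen with earlier results of these data known. All 32 are named; of other nucleotide and folate genes, the 2 called with the largest change each way at a mean of at least 5 CPM are named with their values, except where a gene is not reported here; TK2 and the genes named only in counts were added after their values were seen. Reads were not analysed here.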

Additional observations from a re-analysis of the deposited data

How the results depend on the processing

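Of the 8 genes called, PFAS, IMPDH1, UMPS and RRM2 were called under all 15 alternatives in which single genes were fitted, TK1 and DTYMK under 14, and RRM2B and SAMHD1 under 13; none changed direction. At an adjusted p of 0.01, the 32 genes held 0 higher by edgeR (RRM2B had an adjusted p of 0.0286; 11 of the 32 had an unadjusted p under 0.05 in either direction, and DESeq2 called 1 higher at 0.05) and 4 lower, all genes 1077 higher and 861 lower, other nucleotide genes 2 higher and 0 lower (edgeR; 1 was lower at 0.05), and ferroptosis suppressors 1 higher. Among other nucleotide genes 2 were lower with library size scaling, when at least 1 CPM in 2 libraries was required, and with the replicate block. Folate genes lower numbered 5 with library size scaling, that CPM filter, limma-voom and the GC offset, and 6 with no filter, the length offset and the replicate block. Ferroptosis suppressors lower numbered 2 with the GC offset and the replicate block. The median of the 32 genes was -0.18 with the GC offset.

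As each library was left out, calls ranged from 1067 to 2981 higher and 780 to 2785 lower over all genes, 0 to 3 higher and 5 to 10 lower over the 32 genes, 2 to 10 higher and 0 to 7 lower over other nucleotide genes, 1 to 2 higher and 1 to 8 lower over folate genes, 5 to 19 lower over S phase genes, and 1 to 3 higher and 1 to 3 lower over ferroptosis suppressors. The median of the 32 genes ranged from -0.18 to -0.072. Over all genes the fewest were called without Spautin-1 replicate 2, and over the 32 genes without Spautin-1 replicate 1. Each of these fits took its spread from the group that kept both libraries. The cause of these shifts in calls was not tested.

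Directions changed in genes that were not called. As each library was left out, PPAT ranged from -0.27 to 0.017, GART from -0.21 to 0.18, GMPS from -0.092 to 0.027, CTPS1 from -0.027 to 0.12, UCK2 from -0.086 to 0.11, GUK1 from -0.32 to 0.61 and NME2 from -0.36 to 0.25. With the GC offset CTPS1 was at -0.00698, UCK2 at -0.024 and RRM1 at -0.020. UCK2 was at -0.000588 with upper quartile scaling, -0.022 with library size scaling and -0.051 with the length offset.

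The labels do not say that replicate numbers mark a shared culture. Over all genes tested, same-numbered libraries did not deviate together (correlation -0.0015). The correlation over the 32 genes alone was not computed. The replicate block gave 2615 genes higher and 2485 lower and added DUT (-0.44, edgeR adjusted p = 0.00204) to the calls among the 32 genes.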
